A study of Mus musculus with 4 samples.

Results

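The genes of de novo lipogenesis, the cytosolic route that turns acetyl-CoA into fatty acids, were examined in dermal white adipose tissue (dWAT), the fat layer beneath the dermis that surrounds the lower ends of hair follicles. 10 genes, chosen by symbol for their place in this route, were found among the 22913 genes listed in each library. All 10 were above 0 in all libraries. RNA sequencing gave 4 libraries of C57BL/6 mouse dWAT, taken by microdissection, with 1 library per group. OTD came from old mice (18 months) and YTD from young mice (2 months) with follicles in telogen, the resting phase of the hair cycle. OAD came from old mice (18 months) and YAD from young mice (2 months) with follicles in anagen, the growth phase, which was started by plucking the hair. The labels give no other treatment and no allele. The age field of the labels gives 18 months for YTD and 2 months for OAD, against their titles and the study's methods, and the titles were followed. The methods describe tissue of many mice per group, so a library is taken here as a pool, and the days after plucking at which the old and the young mice reached anagen were not the same. With 1 library per group there is no spread between replicates and no test. A gene was called different when its log2(FPKM + 1) differed by at least 1 (about 2-fold) between a pair of libraries.

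In this route ATP citrate lyase supplies acetyl-CoA, acetyl-CoA carboxylase makes malonyl-CoA, and fatty acid synthase joins these units into palmitate with NADPH as the reductant. Elongase and desaturase then convert palmitate to stearate, palmitoleate and oleate, the usual acyl chains of stored triglyceride. The genes are transcribed under SREBP-1, which responds to insulin and sterols, and ChREBP, which responds to glucose, and in white fat and liver they are known to be high after feeding and low in fasting.

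Libraries differed in more than the lipogenic genes. Fragments were estimated at 19000000 to 24400000 per library. Mitochondrially encoded genes took up 52.7% and 44.7% of all FPKM in OTD and YTD, and 18.3% and 14.4% in OAD and YAD. The adipocyte identity of the tissue was checked by its markers. Adipoq (adiponectin) stood at 427 and 280 FPKM in OTD and YTD, and 103 and 76.5 in OAD and YAD, and all 15 adipocyte markers were above 0 in all libraries. RNA of other tissues was there too. The 15 skeletal muscle markers, none of them at 0, summed to 60400 and 95383 FPKM in OTD and YTD, and 14459 and 11018 in OAD and YAD. The 12 hair shaft and matrix markers measured summed to 67.2 and 156 FPKM in OTD and YTD, and to 15900 and 14570 in OAD and YAD. The Y-linked genes Uty, Ddx3y, Kdm5d and Eif2s3y were lower in OAD than YAD, with log2 differences of -0.97, -0.67, -0.65 and -0.45, and sex is not given in the labels, so the part of sex in the differences was not tested. In bulk tissue, fewer cells of a type and less RNA per cell cannot be told apart.

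The lipogenic genes together held 1158 and 1168 FPKM in OTD and YTD, and 742 and 660 in OAD and YAD. Scd1 was the highest of the 10 in all 4 libraries. Thrsp came second in OTD and YTD, and Scd2 took that place in OAD and YAD. Elovl6 was the lowest of the 10 in telogen and Mlxipl the lowest in anagen. Acaca varied least between libraries, with its highest FPKM 1.30 times its lowest, followed by Srebf1 at 1.44 times and Fasn at 1.76 times. Elovl6, at 4.62 times, and Scd2, at 4.43 times, varied most. Without replicates, neighbours in this order cannot be ranked beyond their levels in single libraries.

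**Figure D1:**
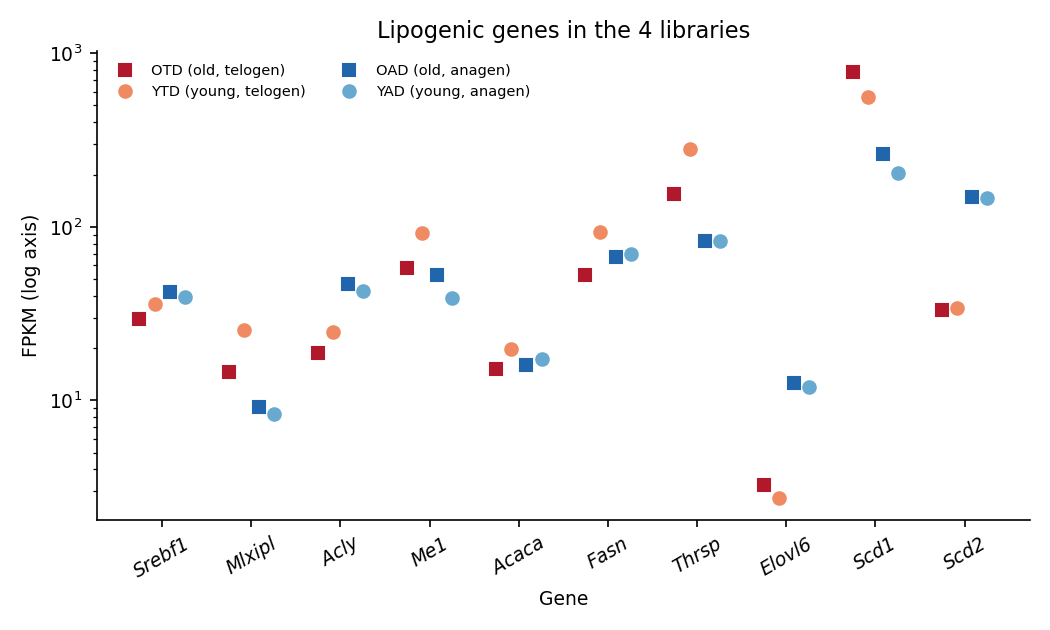
FPKM (log axis) of the 10 lipogenic genes in OTD, YTD, OAD and YAD, with 1 point per library and no error bars since each group is 1 library. Scd1 is highest in every library, Scd2 and Elovl6 stand higher in OAD and YAD than in OTD and YTD, and Mlxipl and Thrsp peak in YTD.

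The first comparison asked how the genes differ with age in resting skin. In telogen, 8 of the 10 genes were lower in OTD than YTD and 2 were higher (7 to 9 lower under other scalings between libraries), but none passed 2-fold, where 3.60% of the 17230 genes above 0 in either library did. At 1.5-fold, 4 genes were lower in OTD (Fasn, Mlxipl, Me1 and Thrsp) and none was higher, beside 9.23% of all genes lower and 6.75% higher (16.0% in either direction). The median log2 difference of the 10 was -0.37, against -0.03 over all genes above 0. These 4 genes lay between percentiles 4.1 and 9.4 of the differences among genes that reach an FPKM of 1. Of such genes, 11.8% were lower and 8.43% higher at 1.5-fold. The members past 1.5-fold changed with the scaling. Without the mitochondrially encoded genes, Mlxipl (-0.568) and Me1 (-0.434) fell short of it (0.585 on the log2 scale) and Scd1 passed it (0.701). With the adipocyte markers set equal, Acaca (-0.594) and Acly (-0.63) passed it too.

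Thrsp, which encodes the nuclear protein Spot 14 and is induced with the lipogenic enzymes, had 154 and 282 FPKM in OTD and YTD, and 82.8 and 82.9 in OAD and YAD. YTD stood highest and the pair of anagen libraries were level as deposited. The gene was 1.83-fold lower in OTD than YTD, with log2 differences of -0.87 in telogen and -0.00 in anagen. Across the settings the anagen value ranged from -0.31 to 0.015. Fasn, the synthase itself, had 52.8 and 93.0 FPKM in OTD and YTD, and 67.2 and 69.5 in OAD and YAD. OTD was its lowest library and YTD its highest, 1.76-fold apart (log2 difference of -0.81), while OAD and YAD differed by -0.05. Mlxipl, which encodes ChREBP, had 14.5 and 25.6 FPKM in OTD and YTD, and 9.18 and 8.30 in OAD and YAD. It was 1.76-fold lower in OTD than YTD (log2 difference of -0.78), and both anagen libraries lay below both telogen libraries. Me1, the cytosolic malic enzyme that yields NADPH, had 58.1 and 92.0 FPKM in OTD and YTD, and 52.7 and 38.6 in OAD and YAD. It was 1.58-fold lower in OTD than YTD and 1.36-fold higher in OAD than YAD (log2 differences of -0.65 and 0.44). The latter was the largest anagen age difference of the 10 in the values as deposited.

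Acaca, acetyl-CoA carboxylase 1, had 15.2 and 19.7 FPKM in OTD and YTD, and 16.1 and 17.4 in OAD and YAD. Its log2 differences of -0.35 in telogen and -0.11 in anagen were small beside those of Fasn in telogen, and FPKM of Fasn over Acaca was 3.47 and 4.72 in OTD and YTD, and 4.18 and 3.99 in OAD and YAD. Acly, which encodes ATP citrate lyase, had 18.8 and 24.9 FPKM in OTD and YTD, and 47.0 and 42.4 in OAD and YAD. Its levels separated by phase, and its age differences were -0.39 in telogen and 0.15 in anagen. Srebf1, which encodes SREBP-1, had 29.3 and 35.8 FPKM in OTD and YTD, and 42.1 and 39.5 in OAD and YAD. The order was OTD, YTD, YAD and OAD from low to high, over a narrow range, with age differences of -0.28 in telogen and 0.09 in anagen.

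The desaturases differed from each other with age. Scd1, which makes oleate and palmitoleate and is the main desaturase of adipocytes, had 779 and 558 FPKM in OTD and YTD, and 264 and 203 in OAD and YAD. It was higher in the old library of each phase, by 1.40-fold in telogen and 1.30-fold in anagen (log2 differences of 0.48 and 0.38), and both telogen libraries lay above both anagen libraries. Scd2, the paralog known from brain and developing skin, had 33.4 and 34.3 FPKM in OTD and YTD, and 148 and 146 in OAD and YAD. It was higher in both anagen libraries, and its age differences were -0.04 and 0.02. Elovl6, which lengthens palmitate to stearate, had 3.24 and 2.72 FPKM in OTD and YTD, and 12.6 and 12.0 in OAD and YAD, also with the anagen libraries above the telogen libraries. Its age difference in telogen was 0.19, and its telogen levels rest on roughly 53 and 42 fragments. The log2 ratio without the added 1 was 0.25, with a counting standard error of 0.30, so no age difference was detectable at this depth. For the other 9 genes that counting error was at most 0.09, and it covers counting only, not the difference between pools of mice.

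In anagen, 7 of the 10 genes were higher in OAD than YAD and 3 were lower (2 higher and 8 lower in TPM, without the mitochondrially encoded genes or with the adipocyte markers set equal), and none passed 2-fold (1.18% of the 17613 genes above 0) or 1.5-fold (4.97%). Their median was 0.08, against 0.00 over all genes. As deposited, Me1 and Scd1 were the only members with a difference above 0.2 in size. This depended on the scaling. Across the settings Me1 fell to as little as 0.13 and Scd1 to 0.06, while Acaca reached -0.40, Fasn -0.36, Thrsp -0.31 and Scd2 -0.29. The difference between the telogen and the anagen age difference was not tested, since each group is 1 library.

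**Figure D2:**
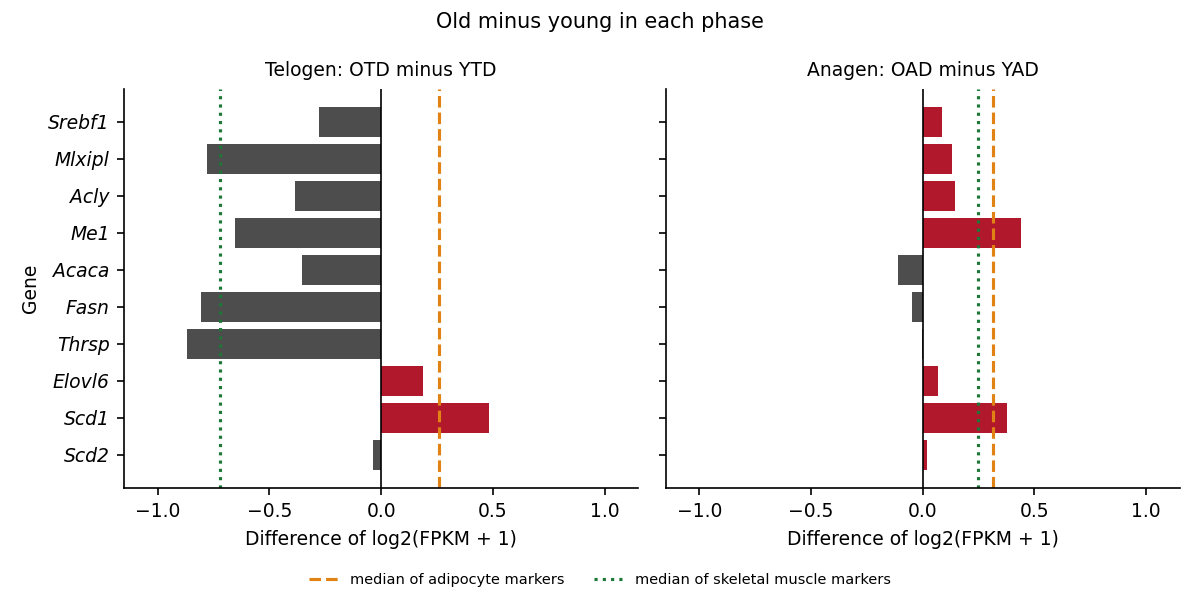
Old minus young difference of log2(FPKM + 1) for each lipogenic gene in telogen (left) and anagen (right), with dashed and dotted lines at the medians of 15 adipocyte and 15 skeletal muscle markers. The bars of Thrsp, Fasn, Mlxipl and Me1 run from -0.87 to -0.65 in telogen, near the muscle median of -0.72 and away from the adipocyte median of 0.26.

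Markers of other tissues moved with these differences. In telogen the skeletal muscle markers stood lower in OTD in 15 of 15 cases, at a median of -0.72 (Acta1, 17991 against 27442 FPKM), and 4 of them passed 2-fold. Hair shaft and matrix markers were lower in 12 of 12 cases (median -1.17, 8 past 2-fold), and epidermal markers in 7 of 10 (median -0.29). Higher in OTD were 6 of 6 endothelial (median 0.71), 10 of 11 macrophage (0.52) and 8 of 9 Schwann cell and myelin markers (0.46). The 15 adipocyte markers had a median of 0.26, with 10 higher and 5 lower in OTD. In anagen the adipocyte median was 0.31 and the muscle median 0.25, the latter -0.07 with the adipocyte markers set equal. The part of muscle RNA, or of any of these tissues, in the lipogenic differences was not tested. Set against Adipoq in the same library, Fasn stood at 0.124 and 0.332 times its FPKM in OTD and YTD, and at 0.650 and 0.909 times in OAD and YAD. For Thrsp the ratios were 0.360, 1.01, 0.801 and 1.08 in the same order. Both ratios were lowest in OTD, with Adipoq as the only reference. Adipoq itself was 0.60 higher in OTD than YTD on the log2 scale, above the adipocyte median of 0.26. Set against Lipe instead, Fasn was again lowest in OTD, but Thrsp was lowest in OAD. Scd1 over Adipoq ranged from 1.82 to 2.65. It was lower in the old library of each phase, whereas against the median of all 15 adipocyte markers Scd1 was higher there, by 0.22 in telogen and 0.06 in anagen on the log2 scale.

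Of 46 other genes of the route, grouped by role, 45 were above 0 in telogen. Between OTD and YTD, 21 were higher and 24 lower (median -0.03). Over all genes above 0, 3.60% passed 2-fold and 1.93% were called lower. The 3 route genes that passed 2-fold were all lower in OTD. These were Pnpla3 (4.30 against 15.2 FPKM, log2 difference of -1.62), a lipid hydrolase gene that is a known target of SREBP-1 and ChREBP, Hacd1 (-1.30), a dehydratase of fatty acid elongation, and Prkaa2 (-1.14), a catalytic subunit of the AMP-activated kinase that phosphorylates acetyl-CoA carboxylase. Hacd1 and Prkaa2 are also strongly expressed in skeletal muscle, whose markers were lower in OTD as well. The part of muscle RNA in their differences was not tested. Pnpla3 had 12.1 FPKM in OAD and 11.9 in YAD, so OTD was its 1 low library. Between OAD and YAD, 22 were higher, 24 lower and none passed 2-fold, beside 1.18% of all genes above 0.

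The second comparison set anagen against telogen at each age. In young mice 6 of the 10 genes passed 2-fold, 2 higher in YAD (Scd2 and Elovl6) and 4 lower (Scd1, Mlxipl, Me1 and Thrsp), beside 32.7% of the 17622 genes above 0, 16.1% higher and 16.7% lower. In old mice 4 of the 10 passed, 3 higher in OAD (Acly, Scd2 and Elovl6) and 1 lower (Scd1), beside 31.7% of 17712 genes, 16.1% higher and 15.6% lower. Among genes that reach an FPKM of 1 in either library, as all 10 do, 42.0% passed in young and 40.5% in old mice. The medians of the 10 were -0.29 in young mice, though 0.53 in TPM, and 0.21 in old mice, though -0.07 without mitochondrially encoded and muscle marker genes, against 0.02 and 0.01 over all genes. The age comparisons and the phase comparisons share the same 4 libraries, so they are not separate measurements.

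Scd2 was 4.25-fold higher in YAD than YTD and 4.43-fold higher in OAD than OTD (log2 differences of 2.06 and 2.12). Elovl6 was 4.40-fold and 3.89-fold higher (1.80 and 1.68). Acly was 1.71-fold higher in young and 2.50-fold higher in old mice (0.75 and 1.28), of which only the second passed the threshold. These genes were higher in anagen at both ages under every scaling tried, as was Srebf1, by 0.14 and 0.51.

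Scd1 was 2.75-fold lower in YAD than YTD and 2.95-fold lower in OAD than OTD (log2 differences of -1.45 and -1.56), except that it came to 0.19 in young mice when the adipocyte markers were set to be equal in the libraries compared. Thrsp was 3.40-fold lower in young and 1.86-fold lower in old mice (-1.75 and -0.89), and the old value turned to 0.54 under that scaling. Mlxipl was 3.08-fold and 1.58-fold lower, and it turned to 0.03 and 0.74 under it. Me1 was 2.38-fold lower in YAD than YTD but only 1.10-fold lower in OAD than OTD (-1.23 and -0.14), and became 0.40 and 1.28. Fasn and Acaca stood within 2-fold at both ages, lower in YAD than YTD (-0.41 and -0.17) and higher in OAD than OTD (0.34 and 0.08). The sign of Fasn turned in young mice and that of Acaca at both ages under at least 1 other scaling.

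**Figure D3:**
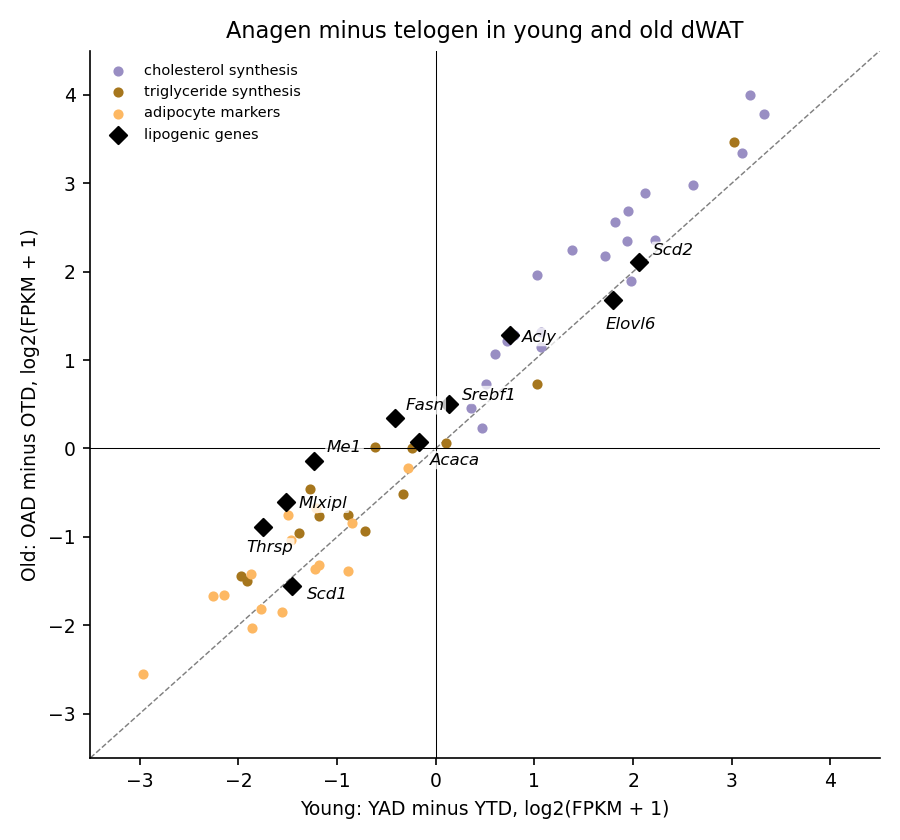
Anagen minus telogen difference of log2(FPKM + 1) in young (x axis) and old mice (y axis) for the lipogenic genes (black diamonds), cholesterol synthesis, triglyceride synthesis and adipocyte marker genes (coloured points), with a dashed line where both are equal. Scd2, Elovl6 and Acly lie with the cholesterol synthesis genes at the upper right. Scd1, Thrsp and Mlxipl lie with adipocyte markers at the lower left.

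Neighbouring lipid pathways were compared by phase as well. All 21 cholesterol synthesis genes were higher in anagen at both ages (20 of 21 in old mice without mitochondrially encoded and muscle marker genes), with medians of 1.71 and 2.17, and 15 of them passed 2-fold in young and 18 in old mice. Among them Sqle (squalene epoxidase) had 3.61 FPKM in YTD and 45.4 in YAD. Srebf2, which encodes the SREBP of cholesterol synthesis, had 9.19 and 9.40 FPKM in OTD and YTD, and 43.9 and 45.6 in OAD and YAD. Insig1, a sterol-sensing partner of the SREBP pathway and a SREBP target, had 37.9, 33.0, 78.3 and 68.0 FPKM in the same order. The median of the 13 triglyceride synthesis genes was -0.72 in young and -0.52 in old mice, though 0.38 and 0.47 with the adipocyte markers set equal, with Gpam (glycerol phosphate acyltransferase) at 53.1 FPKM in YTD and 12.8 in YAD. All 15 adipocyte markers (14 of 15 in TPM) were lower in anagen, with medians of -1.495 and -1.39. Hair shaft and matrix markers were higher, 12 of 12 past 2-fold at both ages with medians of 6.57 and 7.99, and the epidermal markers had medians of 3.18 and 4.23. Because these tissues were represented so differently in the anagen and telogen libraries, a difference in lipogenic RNA per adipocyte and a difference in cell makeup cannot be told apart.

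Partners of the lipogenic enzymes also included genes of both directions. The oxidative pentose phosphate genes G6pdx (15.6 and 13.6 FPKM in OTD and YTD, and 83.9 and 79.3 in OAD and YAD) and Pgd (26.6, 27.0, 59.9 and 55.0), another source of NADPH, were higher in anagen. Idh1, the cytosolic isocitrate dehydrogenase that also yields NADPH and was named after its values were seen, was lower there, at 39.5, 44.2, 26.1 and 26.9 FPKM. Me1 over G6pdx was therefore 3.73 in OTD and 6.75 in YTD, but 0.628 in OAD and 0.487 in YAD. Acacb, the mitochondrial carboxylase that restrains fatty acid oxidation and is high in muscle, had 22.8, 34.3, 7.62 and 6.14 FPKM, so that Acaca over Acacb was 0.666 and 0.573 in telogen and 2.11 and 2.84 in anagen. Acss2, which makes acetyl-CoA from acetate, had 17.3, 24.8, 10.4 and 9.27 FPKM, opposite in phase to Acly. Slc25a1, the citrate carrier that feeds Acly, had 68.8, 85.3, 69.9 and 61.0 FPKM, and Mid1ip1, the Spot 14 relative that helps the carboxylase polymerise, had 68.4, 71.1, 68.9 and 58.9. Both stayed within 1.5-fold in all 4 comparisons. The elongase Elovl3, known in hair follicle, sebaceous gland and brown fat, went from 0.685 and 1.33 FPKM in OTD and YTD to 39.3 and 62.2 in OAD and YAD, and Elovl4 from 2.09 and 1.83 to 26.6 and 19.0. Over all 46 genes, 9 were called higher and 10 lower in young mice, and 11 higher and 10 lower in old mice. Over all genes, 16.1% were called higher and 16.7% lower in young mice, and 16.1% and 15.6% in old mice. The genes called lower included the mitochondrial pyruvate genes Pdha1 (-2.15 in young, -1.55 in old) and Mpc1 (-2.10 and -1.52), the mitochondrial acetate enzyme Acss1 (-1.98 and -1.54) and Nr1h3 (-1.96 and -1.56), which encodes LXR-alpha, a known activator of Srebf1. Skeletal muscle markers were lower in anagen too, with medians of -2.95 in young and -1.94 in old mice. The part of muscle RNA in the differences of these partner genes was not tested.

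**Figure D4:**
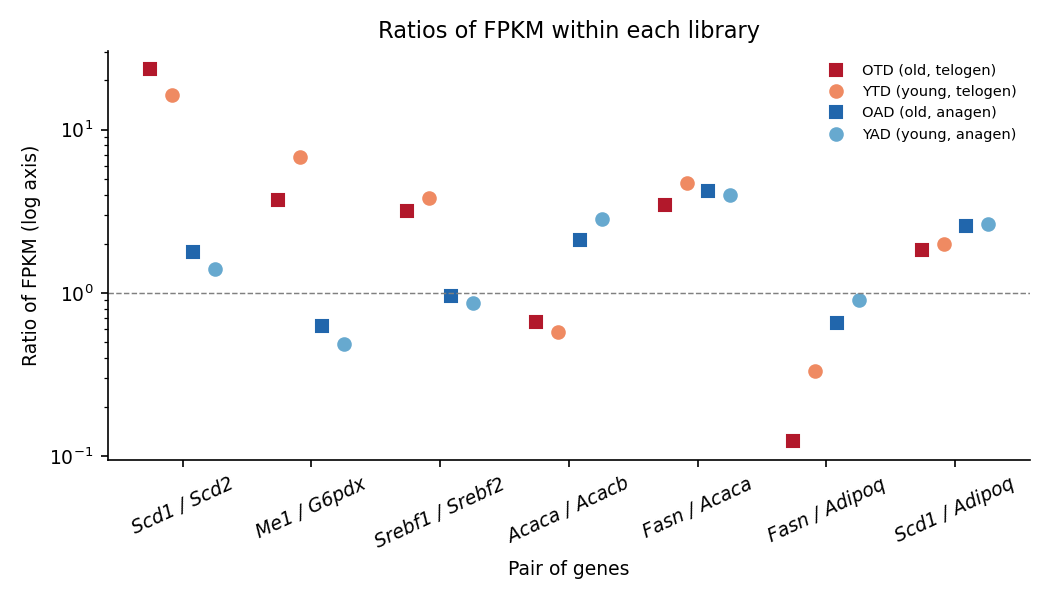
Ratios of FPKM between pairs of genes in the same library (log axis), with 1 point per library and a dashed line at equal FPKM. Ratios within a library do not depend on the scaling between libraries. Scd1 over Scd2 falls from 23.4 and 16.3 in OTD and YTD to 1.79 and 1.39 in OAD and YAD, and Fasn over Adipoq is lowest in OTD.

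Ratios within a library are free of the scaling between libraries. FPKM of Scd1 over Scd2 was 23.4 and 16.3 in OTD and YTD, and 1.79 and 1.39 in OAD and YAD, so Scd1 far exceeded Scd2 in telogen and lay near it in anagen. Srebf1 over Srebf2 was 3.19, 3.81, 0.959 and 0.867, and Thrsp over Mid1ip1 was 2.25, 3.97, 1.20 and 1.41. Scd3, the desaturase of sebaceous glands, reached 0.915 FPKM at most and was listed at 0 in YTD, and Scd4 reached 0.248. The sebaceous markers Awat1 and Dgat2l6 were at 0.162 FPKM or less in all libraries, although the 11 sebaceous markers summed to 15.7 and 9.63 FPKM in OTD and YTD, and 123 and 118 in OAD and YAD, mostly Elovl3, Soat1 and Krt79. All 10 sebaceous markers above 0 in young mice were higher in YAD than YTD, and 9 of 11 were higher in OAD than OTD. The brown fat gene Ucp1 was at 0.122 FPKM or less.

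Scd1 and Scd2 lie close together on chromosome 19 of GRCm38, Scd1 at chr19:44394451-44407709 on the minus strand and Scd2 at chr19:44293676-44306864 on the plus strand, and parts of them are identical in sequence, so reads from there could have come from either. Their coding sequences, read from 1 GENCODE transcript of each gene, were identical at 90.36% of 1068 aligned bases, and 14.2% of the 50-base windows of Scd1 occur unchanged in Scd2. How the authors assigned reads that match both is not given in the sources used here, so both levels are uncertain by an amount not measured here. The following stretches of 90 coding bases show the extremes within an exon. In exon 2 (Scd1 chr19:44406621-44406710, Scd2 chr19:44294963-44295052) 30 bases differ, which are in capitals, and reads from there can be told apart. In exon 4 (Scd1 chr19:44401716-44401805, Scd2 chr19:44299702-44299791) the 90 bases are the same in both genes.
Scd1 exon 2: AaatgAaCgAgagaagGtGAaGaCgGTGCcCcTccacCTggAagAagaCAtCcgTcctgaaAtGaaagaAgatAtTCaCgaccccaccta
Scd2 exon 2: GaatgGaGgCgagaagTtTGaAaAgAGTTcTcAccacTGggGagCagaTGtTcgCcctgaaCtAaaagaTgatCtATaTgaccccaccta
Scd1 and Scd2 exon 4: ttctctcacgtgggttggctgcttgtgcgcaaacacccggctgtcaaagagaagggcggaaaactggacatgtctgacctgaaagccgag
The difference in phase runs in opposite directions for the pair, 2.75-fold lower for Scd1 and 4.25-fold higher for Scd2 in young mice.

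Both regulator genes have more than 1 start site, and a gene-level FPKM does not separate the forms. As background, Mlxipl makes ChREBP-alpha from its main start and the shorter, more active ChREBP-beta from an upstream start, and Srebf1 makes SREBP-1a and SREBP-1c from separate first exons, the downstream one being that of SREBP-1c, the form common in fat and liver. The listed position of Mlxipl in the files (chr5:135106902-135138382, plus strand) does not reach the upstream start. RefSeq windows before the start sites (GRCm38.p6) were given for 8 of the 10 genes, 12 windows in all. The windows of both Mlxipl starts and of 2 of the 3 Srebf1 starts listed are shown because their use could not be separated here. That of Fasn, the fatty acid synthase gene, is shown as well. Capitals mark matches on either strand to the sterol regulatory element core TCACNCCAC, the E-box CACGTG, the CCAAT box CCAAT and the GC box GGGCGG, and in the Fasn window a pair of CCAAT matches on opposite strands overlap.
Mlxipl, chr5:135106641-135106890, plus strand: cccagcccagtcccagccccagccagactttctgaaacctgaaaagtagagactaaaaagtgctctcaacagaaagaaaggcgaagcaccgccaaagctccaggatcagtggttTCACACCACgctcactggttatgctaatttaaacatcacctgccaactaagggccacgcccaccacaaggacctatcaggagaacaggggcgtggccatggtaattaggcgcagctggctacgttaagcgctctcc
Mlxipl, upstream start, chr5:135089640-135089889, plus strand: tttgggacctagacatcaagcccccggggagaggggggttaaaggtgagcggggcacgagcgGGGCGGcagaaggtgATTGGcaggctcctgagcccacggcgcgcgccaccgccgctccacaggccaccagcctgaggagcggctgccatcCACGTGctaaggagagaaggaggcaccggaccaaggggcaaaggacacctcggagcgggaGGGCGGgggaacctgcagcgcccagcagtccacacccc
Srebf1, chr11:60220628-60220877, minus strand: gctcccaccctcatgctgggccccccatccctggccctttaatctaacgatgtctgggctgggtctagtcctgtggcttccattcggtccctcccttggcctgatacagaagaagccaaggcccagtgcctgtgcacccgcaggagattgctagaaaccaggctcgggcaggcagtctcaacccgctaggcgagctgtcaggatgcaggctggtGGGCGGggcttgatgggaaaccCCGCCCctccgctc
Srebf1, downstream start, chr11:60210472-60210721, minus strand: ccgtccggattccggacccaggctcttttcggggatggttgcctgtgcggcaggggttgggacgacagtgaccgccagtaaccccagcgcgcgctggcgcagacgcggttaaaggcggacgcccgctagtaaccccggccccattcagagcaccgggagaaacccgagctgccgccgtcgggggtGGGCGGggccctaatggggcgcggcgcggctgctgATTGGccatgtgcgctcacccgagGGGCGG
Fasn, chr11:120824548-120824797, minus strand: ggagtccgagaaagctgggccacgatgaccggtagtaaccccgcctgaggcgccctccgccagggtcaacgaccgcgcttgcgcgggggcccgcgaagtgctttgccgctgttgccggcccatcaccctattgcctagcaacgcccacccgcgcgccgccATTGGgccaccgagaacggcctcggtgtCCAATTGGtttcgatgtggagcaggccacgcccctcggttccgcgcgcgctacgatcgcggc
The sterol element core occurred in 1 of the 12 windows, that of the main Mlxipl start, and in 1.05% of the 32851 RefSeq windows. The E-box occurred in 1, at the upstream Mlxipl start, and in 6.02% of all. CCAAT occurred in 6 of 12 (33.9% of all) and GGGCGG in 5 of 12 (32.7% of all). The carbohydrate response element, searched as a pair of spaced E-box-like motifs, occurred in none of the 12 and in 0.0396% of all windows. These are letters in short windows and no measure of binding.

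The other genes lie at chr11:84129672-84401651 (Acaca, plus strand), chr11:100476353-100528000 (Acly, minus), chr11:120805940-120824178 (Fasn, minus), chr11:60199089-60220604 (Srebf1, minus), chr3:129532386-129638495 (Elovl6, plus), chr9:86581371-86695953 (Me1, minus) and chr7:97412938-97417730 (Thrsp, minus) in the files, on GRCm38. Centred on its own mean over the 4 libraries, the average log2 level of the 10 genes was -0.20 and 0.15 in OTD and YTD, and 0.08 and -0.03 in OAD and YAD. It was lowest in OTD and highest in YTD. Emc4, Hist1h2bc and Fam98a were nearest to this average among 4324 genes at 10 FPKM or more throughout, at root mean square distances of 0.0229 to 0.0233 over the 4 libraries. The average is that of a set in which Scd2 and Elovl6 ran opposite to Scd1, Mlxipl and Thrsp by phase.

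Some directions depended on the scaling between libraries. The median of all genes that reach an FPKM of 1 moved by more than 0.1 under several scalings, by as much as 0.73 in TPM and 1.503 with the adipocyte markers set equal in the young phase comparison. Relative to that median, every member kept its sign in all 4 comparisons under all 9 settings, except Scd2 with age in both phases and Thrsp with age in anagen, whose differences lay near 0. Each rescaling shifts all genes of a library nearly together, so this follows mostly by construction and is no independent check. In telogen, the values relative to that median ranged from -0.78 to -0.71 for Fasn, -0.85 to -0.77 for Thrsp, -0.74 to -0.69 for Mlxipl, -0.63 to -0.56 for Me1 and 0.50 to 0.58 for Scd1. In the young phase comparison they ranged from 2.03 to 2.17 for Scd2, 1.76 to 2.10 for Elovl6, -1.49 to -1.34 for Scd1, -1.66 to -1.49 for Mlxipl, -1.28 to -1.13 for Me1 and -1.80 to -1.65 for Thrsp. The set of calls moved in absolute terms. With the adipocyte markers set equal, 3 members were called lower in OTD than YTD in place of none, beside 4.22% of all genes, and 6 were called higher and none lower in YAD than YTD in place of 2 and 4, beside 53.7% and 3.48% of all genes. In TPM, 3 were called higher and none lower in YAD, beside 33.4% and 7.23%. The split of calls over all genes moved too, from 2829 higher and 2938 lower in YAD to 5891 and 1274 in TPM, and from 287 higher and 333 lower in OTD than YTD to 490 and 186 without the mitochondrially encoded genes.

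**Figure D5:**
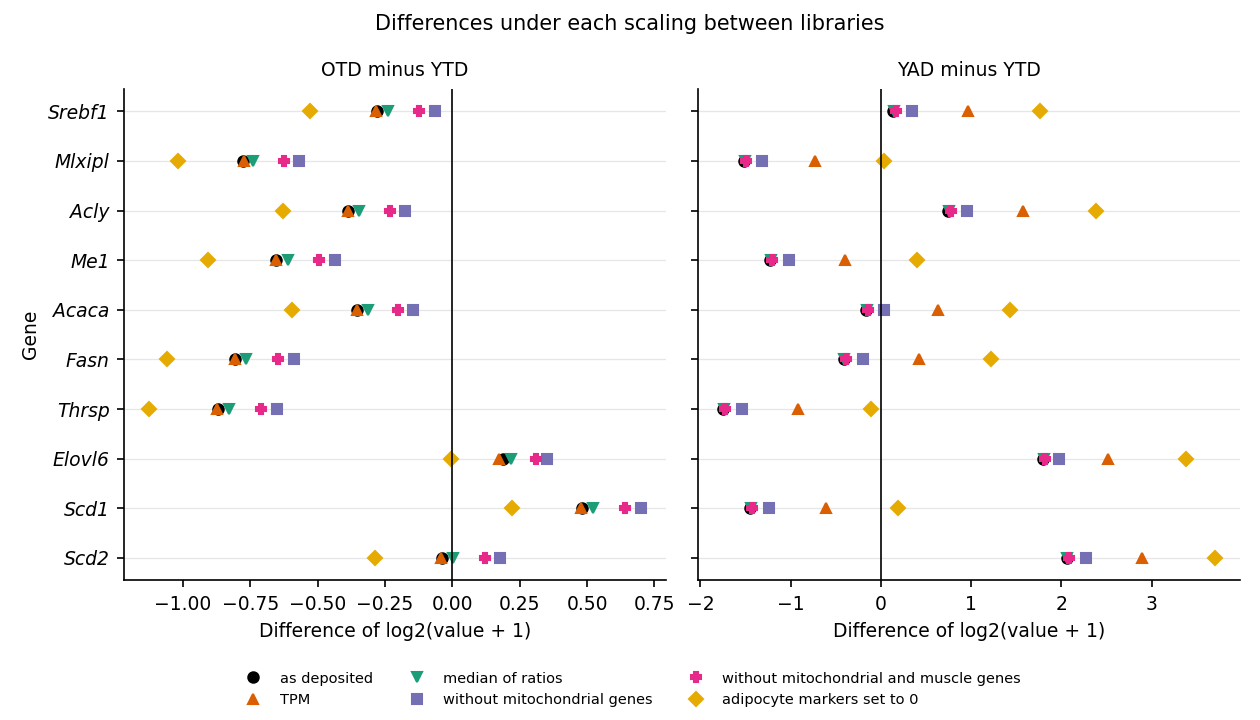
Differences of log2(value + 1) of the lipogenic genes for OTD minus YTD (left) and YAD minus YTD (right) under 6 scalings between libraries, 1 symbol per scaling. Within a comparison the genes shift together, so Thrsp, Fasn and Mlxipl stay lowest and Scd1 highest on the left, and Scd2 and Elovl6 stay highest on the right.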

How the data were processed

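RNA sequencing measured gene expression in 4 dWAT libraries, OTD, YTD, OAD and YAD, 1 per group. The authors deposited FPKM (fragments scaled by listed gene length and by mapped fragments) of 22913 genes on GRCm38. The submitters' processing notes name bcl2fastq, TopHat2 and GRCm38. The counting tool, its version and the annotation are not given in the sources used here. Of the listed lengths, 97.0% are multiples of 3, as coding lengths are. 21750 genes were matched to a symbol.

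FPKM were used as deposited. A difference is that of log2(FPKM + 1), a scale that shrinks differences of low genes, and a call needs a size of at least 1. Genes above 0 in either library of a comparison formed the background. Read counts were not used. Depth was estimated from low values of FPKM times length in genes of 2000 to 4000 bases, is rough, and covers counting error only. No test was possible, since p-values need replicates.

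The 10 members, the gene lists and the comparisons were chosen with earlier results of these data known. Named genes are the members, fixed partners and paralogs (Acacb, Mid1ip1, Scd3, Scd4, Srebf2, Insig1, Slc25a1, G6pdx, Pgd and Acss2), at most the 3 largest differences past 2-fold with an FPKM of at least 1 per pathway list and comparison, the 10 genes nearest to the average profile, and leading markers. Some genes that this rule gives are not reported here. Krt79 and Soat1, Awat1, Dgat2l6 and Ucp1 were named as markers a result turns on, and the Y-linked genes after their values were seen. Alternatives were pseudocounts of 0.1 and 0.01, a minimum FPKM of 1, a 1.5-fold threshold, and rescaling to TPM, by the median of ratios over 15507 genes, without the 13 mitochondrially encoded genes, also without muscle markers, and with the adipocyte marker median at 0. Promoter windows came from RefSeq (GRCm38.p6) and coding sequences from GENCODE vM21. Only the call rule was tested on simulated data, with counting noise alone and differences set well past the threshold. Python 3.11.15, numpy 2.4.6, pandas 2.3.3, biopython 1.88 and matplotlib 3.10.9 were used.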

Additional observations from a re-analysis of the deposited data

Results flagged for a closer look

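The age difference had opposite signs in telogen and anagen for the genes below. Each group is 1 library, so none of these differences was tested. Lower in OTD than YTD and higher in OAD than YAD were Me1, whose log2 difference was 1.09 higher in anagen than in telogen, Mlxipl (0.91 higher in anagen), Acly (0.53), Srebf1 (0.37) and Scd2 (0.058, with both values near 0). The median of the 10 lipogenic genes was 0.45 higher in anagen. Of these, the anagen values of Acly, Scd2, Srebf1 and Mlxipl turned sign under other scalings, which ends the opposition where the telogen value stays below 0, and that of Me1 did not.

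Among the other genes of the route the anagen difference exceeded the telogen one by 1.65 for Pnpla3, 1.18 for Prkaa2, 0.84 for Acacb, 0.64 for Acss2, 0.57 for Mpc1, 0.50 for Slc25a1, 0.40 for Nr1h3, 0.28 for Mid1ip1 and 0.15 for Pgd. In TPM the anagen values of these genes other than Acacb fell below 0, as did that of Acacb with the adipocyte markers set to a median of 0. Scd3 (-0.47) and Scd4 (-0.34) had the opposite order, at levels below 1 FPKM. The median of the cholesterol synthesis genes was 0.48 higher in anagen, with Sqle at 0.46, and that of the triglyceride synthesis genes was 0.39 higher, with Lpin3 at 0.44. Both anagen medians lay below 0 in TPM (-0.079 and -0.12), without mitochondrially encoded genes, also without muscle markers, and with the adipocyte setting.

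The phase difference (anagen minus telogen) had opposite signs at the 2 ages for Fasn, at -0.41 in young and 0.34 in old mice, 0.76 apart, and for Acaca, 0.24 apart. It also did for Pnpla3 (1.65 apart, -0.34 in young and 1.31 in old mice), Slc25a1 (0.50), Mid1ip1 (0.28), Scd4 (-0.34) and the median of the lipogenic genes (0.50). These are the same 4 values of each gene taken the other way, not further evidence, and skeletal muscle markers also differed in size between the libraries, with medians of -2.95 in young and -1.94 in old mice. Their part was not tested.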

How the results depend on the processing

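No paired analysis was possible because each group is 1 library. For the same reason no library could be left out. Pseudocounts of 0.1 and 0.01, a minimum FPKM of 1 and the median of ratios left all counts of called members within 1.5 times and all medians of the 10 genes within 0.05. In telogen by age, the called count was 4 at 1.5-fold and 3 with the adipocyte markers set to a median of 0, and the median was -0.16 without mitochondrially encoded genes, -0.22 also without muscle markers and -0.61 with the adipocyte setting. In anagen by age the median was -0.14 in TPM, -0.079 without mitochondrially encoded genes, -0.074 also without muscle markers and -0.22 with the adipocyte setting, below 0 in each. In the young phase comparison 3 members were called in TPM, and the median was 0.53 in TPM, -0.084 without mitochondrially encoded genes and 1.33 with the adipocyte setting. In the old phase comparison 7 were called with the adipocyte setting (53.4% of all genes), and the median was 0.80 in TPM, 0.045 without mitochondrially encoded genes, -0.074 also without muscle markers and 1.61 with the adipocyte setting. Among the 10 genes and the other route and lipid genes named by rule, called differences changed sign only under the adipocyte setting in young mice, for Scd1 (0.19), Mlxipl (0.029), Me1 (0.40) and Acss2 (0.23). By construction each rescaling moves all genes of a library together. Which scaling is right was not tested. Depth limits Elovl6 in telogen, Scd3 and Scd4. Genes alike in sequence, such as Scd1 and Scd2, may share reads.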
